A study of Homo sapiens with 6 samples.

Results

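The miR-191 and miR-425 cluster consists of a pair of neighbouring microRNA hairpins, each of which can give a mature strand from its 5′ arm (5p) and its 3′ arm (3p). Its members were the array probes named for either arm of each hairpin (hsa-miR-191-5p, hsa-miR-191-3p, hsa-miR-425-5p and hsa-miR-425-3p), which makes 4 of the 2019 human probes on each array. They were put forward with their values in this comparison known, above all those of the 5p arms, so the differences between groups below are a description and carry no test. The samples were HuH7 cells, an established line of human hepatocellular carcinoma grown in MEM with fetal bovine serum. The cisplatin group of 3 samples received 1 µg/ml of this DNA-crosslinking platinum drug for 24 h, and the control group of 3 received none. Total RNA was labelled with the dye Hy5 and hybridised to 1-colour arrays with 1 spot for each human probe. Each group was of 1 cell line, and nothing in the labels says that its samples were separate cultures, so the spread between them may be technical.

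A microRNA pairs through its seed, bases 2 to 8 from the 5′ end, with messenger RNAs and lowers their translation and stability. miR-191 and miR-425 lie in an intron of DALRD3, a gene for a protein that takes part in transfer RNA modification, and are cut from the same primary transcript. miR-191-5p is abundant in many human tissues and tumours, liver cancer among them, and both 5p strands are widely used as reference microRNAs against which others are normalized.

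The mature strands below, from RefSeq on GRCh38.p14, are shown to compare the seeds of the arms, which are in capitals. The miR-425-5p strand is named only.
miR-191-5p: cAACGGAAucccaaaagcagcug
miR-191-3p: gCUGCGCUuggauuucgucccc
miR-425-3p: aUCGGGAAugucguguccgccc
No pair of these 3 strands had the same seed. The closest pair, miR-191-5p and miR-425-3p, agreed at 4 of the seed's positions, and their longest shared run was 5 bases. Of the 2370 human mature microRNAs in the RefSeq table, 0 others had one of these 3 seeds, so no seed relative was at hand to compare. Array probes without an entry in that table, such as miR-425-5p, were not checked. GC content was 52.2% for miR-191-5p and 63.6% for each of the 3p strands.

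The hairpin of MIR191 (chr3:49020618-49020709, minus strand) is shown with its mature arms in capitals, the 5p arm first, to place the probes on their precursor.
MIR191: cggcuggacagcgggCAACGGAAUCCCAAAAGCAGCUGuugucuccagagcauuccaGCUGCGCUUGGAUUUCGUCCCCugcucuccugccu
The miR-191-5p strand occupies chr3:49020672-49020694 and the miR-191-3p strand chr3:49020631-49020652. MIR425 lies 383 bases further along the transcript at chr3:49020148-49020234, with miR-425-3p at chr3:49020159-49020180. Both hairpins fall within DALRD3 (chr3:49015488-49021505), and MIR191 begins 796 bases after the start of that gene. MIR191 also falls within the bounds of NDUFAF3 (chr3:49020452-49023495), which encodes an assembly factor of mitochondrial complex I, whereas MIR425 does not.

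Since the hairpins share a host transcript, the 250 bases before the start of DALRD3 are shown (GRCh38.p14, chr3:49021506-49021755, minus strand, 5′ to 3′), with matches to the motifs searched in capitals.
DALRD3: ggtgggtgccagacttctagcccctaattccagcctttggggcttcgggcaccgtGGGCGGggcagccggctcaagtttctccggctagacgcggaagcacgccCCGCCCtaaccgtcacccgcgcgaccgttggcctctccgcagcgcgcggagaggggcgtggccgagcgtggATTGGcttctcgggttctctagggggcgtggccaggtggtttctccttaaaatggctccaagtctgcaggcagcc
Both strands were searched for 6 motifs, and no matches overlapped. The GC box (GGGCGG) matched 2 times, 195 and 146 bases before the start, and 42.6% of 35097 promoter windows of this length in the table hold it. The CCAAT box (CCAAT) matched 1 time, 75 bases before the start, against 32.0% of windows. No match was found for the ETS core (CCGGAA, 14.5% of windows), the E-box (CACGTG, 6.34%), the cAMP response element (TGACGTCA, 1.65%) or the TATA box (TATAAA, 10.7%). These are letter matches in the window, and no binding was measured. RefSeq lists 2 start sites for DALRD3. The one shown lies at the outer bound of the gene, before both hairpins, and the place of the other is not given here.

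Each array was checked before the members were read. Detection of a probe required a raw foreground, the median pixel of its spot, over a limit set from the 925 blank spots on the same array, their mean with 2 SD added. This limit lay between 209 and 247 intensity units, and 329 to 738 of 2019 human probes exceeded it, fewest on cisplatin 2. The 16 spike control spots had a higher median foreground on the cisplatin array in each same-numbered pair, by 1.19, 1.03 and 1.26-fold for numbers 1, 2 and 3. All 5 liver markers (both arms of miR-122, miR-192-5p, miR-194-5p and miR-885-5p) were detected on all 6 arrays. miR-191 and miR-425 are also abundant in blood cells, and of 7 blood cell markers 0 were detected throughout either group, 1 of them (miR-142-5p) on no array. Their summed foreground was 1482 to 1722 in control and 1462 to 1614 in cisplatin arrays. Of 8 stromal, endothelial and muscle markers 4 were detected throughout one group or both, and the sums over all 8 were 1824 to 2005 and 1796 to 2078.

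hsa-miR-191-5p was well above the blank limit in every sample and higher after cisplatin. In RNA from bulk cells, more of a microRNA per cell and more cells that make it cannot be told apart. Its raw foreground was 762, 940 and 1011 intensity units on control arrays 1, 2 and 3, and 1145, 1607 and 1638 on cisplatin arrays 1, 2 and 3. Every cisplatin array lay above every control array, with cisplatin 1 the closest to the controls. The local background of this spot stayed between 137 and 172. Ordered by raw foreground among the 2019 human probes, miR-191-5p stood 41st, 40th and 37th in control and 34th, 31st and 31st in cisplatin arrays. This order does not depend on any scaling between arrays, and the groups did not overlap in it. The share of all probes with such a separation in order was not counted, so nothing is drawn from it.

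hsa-miR-425-5p, the other 5p strand, showed the same separation at a lower signal. Its raw foreground was 505, 652 and 621 on control arrays and 661, 882 and 832 on cisplatin arrays. The groups did not overlap, but control 2 and cisplatin 1 were only 9 units apart. In the order of raw foreground it moved from 75th, 64th and 66th in control to 51st, 49th and 49th in cisplatin arrays.

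The 3p strands were dim. hsa-miR-191-3p had a raw foreground of 239, 236 and 219 in control and 216, 234 and 236 in cisplatin arrays. It exceeded the blank limit on 1 of 3 control and 2 of 3 cisplatin arrays, and the groups overlapped. hsa-miR-425-3p had 235, 237 and 232 in control and 227, 248 and 248 in cisplatin arrays. It exceeded the limit on 2 of 3 control arrays and on all 3 cisplatin arrays, by at most 1.09-fold on any array, and the groups overlapped. Values this near the blank limit leave small differences between the groups undetectable.

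**Figure D1:**
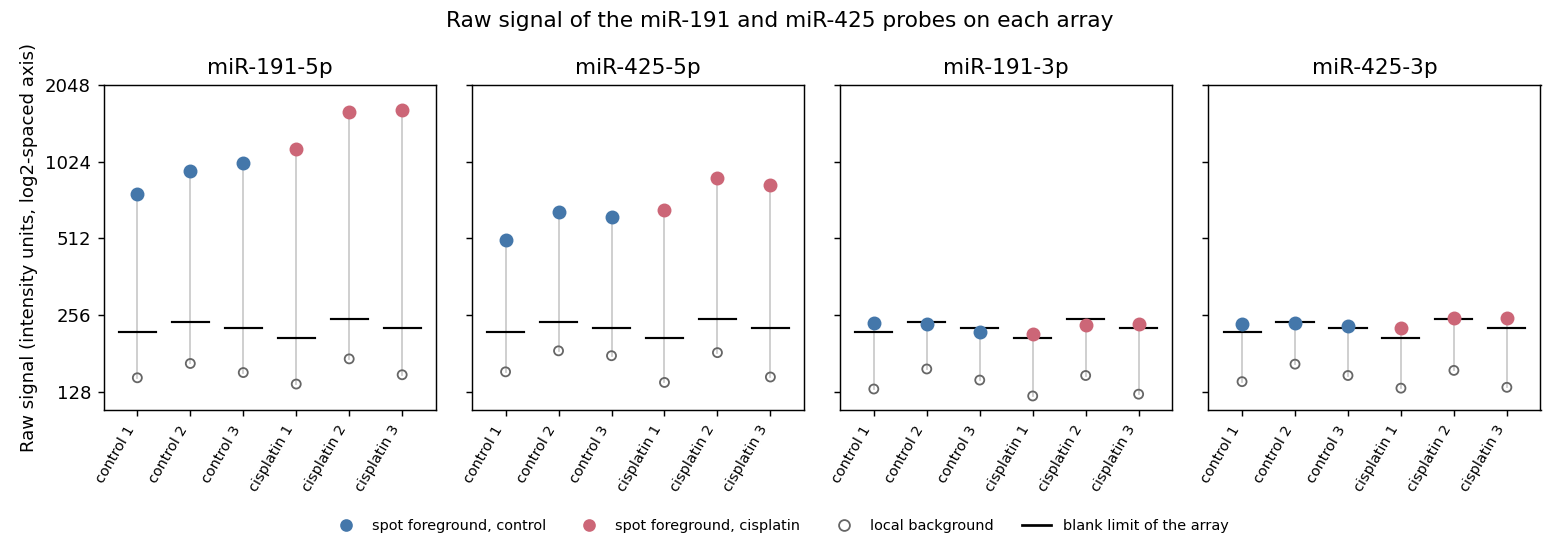
Raw foreground (filled points, blue for control and red for cisplatin), local background (open points) and blank limit (black bars) of the 4 probes on each of the 6 arrays, in intensity units on a log2-spaced axis. Both 5p probes stand well above the limit on every array and higher on the 3 cisplatin arrays, while the 3p probes lie at the limit, between 216 and 248.

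For the comparison between groups the signals went through normexp background correction, quantile normalization across the human probes and a log2 transform. Levels and differences from here on are on that scale unless another is named. The limma fit took in the 324 probes that were detected throughout a group, control or cisplatin. Both 5p probes entered it, detected on all 6 arrays, and miR-425-3p entered it only through the cisplatin group, where it was the higher, so that a positive difference was favoured by the filter itself. miR-191-3p did not enter it. Of the 3 tested members 0 passed an adjusted p of 0.05 in limma, where 0.309% of all tested probes did (1 probe, miR-1304-3p, and 0 with the replicate number as a block). miR-1304-3p was itself dim, with a mean level of 6.42, and was not detected on all 6 arrays. At an unadjusted p under 0.05 there were 2 of the 3 members and 51 of the 324 probes. Since the members were chosen on this comparison, nothing is read from these counts.

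The normalized level of miR-191-5p was 9.70, 9.70 and 9.93 on the control arrays and 10.07, 10.34 and 10.34 on the cisplatin arrays. The means were 9.78 ± 0.13 and 10.25 ± 0.16 (SD, n = 3 each), a difference of 0.47 on the log2 scale (SE 0.11), or 1.39-fold. Control 3 was the highest control array and cisplatin 1 the lowest cisplatin array, and 0.14 separated them. Control arrays 1 and 2 have identical values because the probe held the same rank there after background correction, as it did on cisplatin arrays 2 and 3, and this narrows the SD.

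The normalized level of miR-425-5p was 8.81, 8.98 and 8.96 on the control arrays and 9.29, 9.29 and 9.35 on the cisplatin arrays. The means were 8.92 ± 0.093 and 9.31 ± 0.034 (SD, n = 3 each), a difference of 0.39 (SE 0.064), or 1.31-fold. The cisplatin arrays nearly coincided, partly because arrays 1 and 2 shared a rank, and control 1 was the lowest of all. Among the 324 tested differences, that of miR-191-5p was the 6th highest and that of miR-425-5p the 9th highest. The tested probes as a whole had a median difference of -0.012, with quartiles of -0.10 and 0.10.

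Within same-numbered pairs both 5p strands were higher in the cisplatin array each time, which follows from every cisplatin array lying above every control array. For miR-191-5p the differences were 0.36, 0.64 and 0.41 for numbers 1, 2 and 3, and for miR-425-5p they were 0.48, 0.31 and 0.39. Pair 2 had the largest of these differences for miR-191-5p and the smallest for miR-425-5p. In the folds without normalization given further on, pair 2 was again the largest for miR-191-5p. For miR-425-5p the smallest of those folds was in pair 1. Of all tested probes, 19.1% were higher in the cisplatin array of all 3 pairs.

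Within an array the log2 ratio of miR-191-5p to miR-425-5p was 0.89, 0.72 and 0.97 in control and 0.78, 1.05 and 0.99 in cisplatin samples. The group means of 0.86 ± 0.13 and 0.94 ± 0.14 (SD, n = 3 each) differed by 0.079, less than the spread between samples. The ratio does not give the relative amount of the strands, since each probe has its own response.

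The 3p strands overlapped between groups. For miR-191-3p the normalized means were 6.99 ± 0.22 in control and 7.02 ± 0.054 in cisplatin samples (SD, n = 3 each), a difference of 0.026 (SE 0.13 in a fit of all 2019 probes without the detection filter), and control 1 was the highest at 7.23. For miR-425-3p they were 6.94 ± 0.092 and 7.06 ± 0.048 (SD, n = 3 each), a difference of 0.13 (SE 0.065). This was the 72nd highest of 324 differences. The differences within same-numbered pairs were -0.21, 0.025 and 0.26 for miR-191-3p, and 0.014, 0.14 and 0.22 for miR-425-3p. The latter was thus higher in the cisplatin array of all 3 pairs, as were 19.1% of tested probes. Since miR-425-3p was tested only through the cisplatin group, which favoured this sign, nothing is drawn from its pairs or its place.

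**Figure D2:**
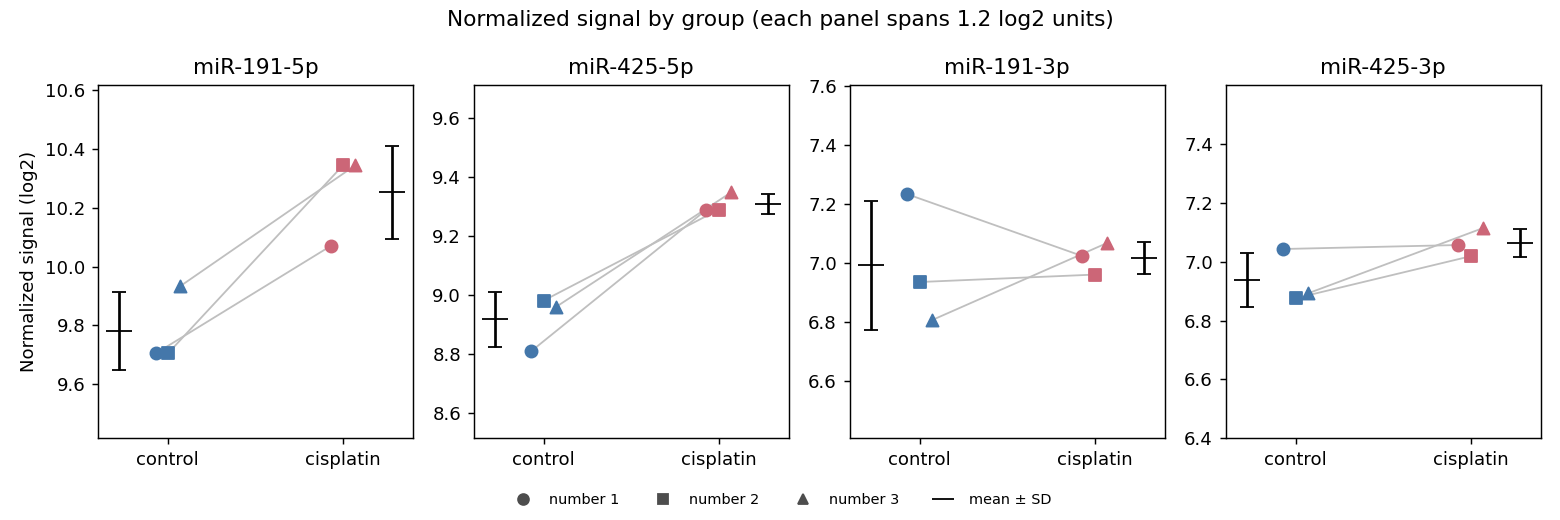
Normalized log2 signal of the 4 probes by group, with grey lines between samples of the same number and black bars for the group mean ± SD of 3 samples. The panels share a span but not an origin, and only the 5p probes have every cisplatin sample above every control sample.

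Across all tested probes, every cisplatin array lay above every control array for 8.64% in normalized values and for 9.57% in raw foreground. Of the members tested, both 5p strands did so on either measure and miR-425-3p on neither. The strands were brought forward for this pattern, so the count is given beside that background and nothing is drawn from it.

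**Figure D3:**
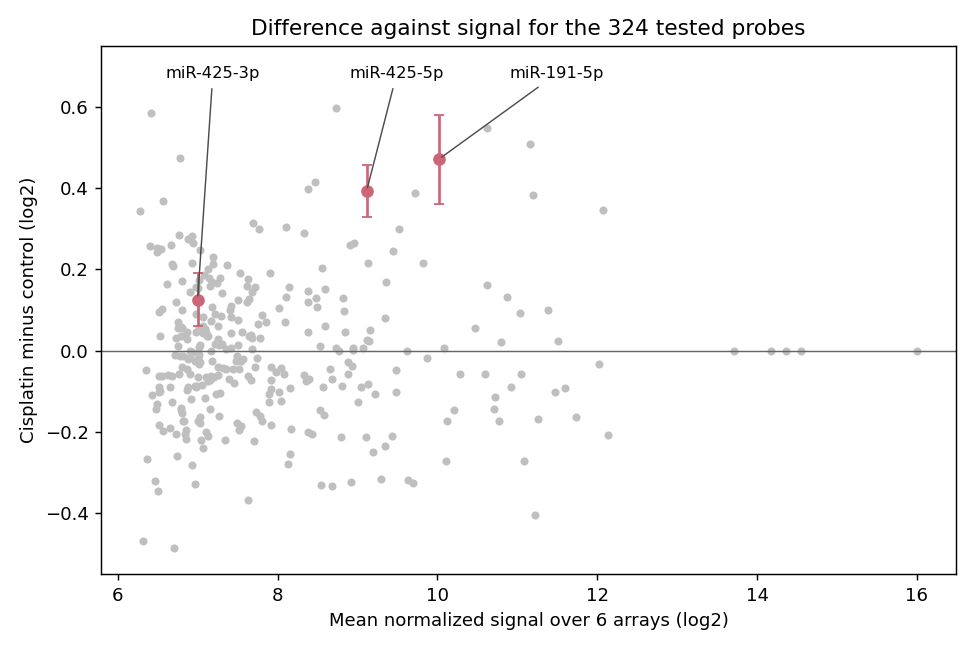
Difference between cisplatin and control (log2) against mean normalized signal (log2) for the 324 tested probes in grey and the tested members in red, with bars of ± 1 SE. Both 5p probes sit near the top edge of the cloud at 0.47 and 0.39, and miR-425-3p lies within it at 0.13.

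The size of the 5p differences depended on how arrays were put on a common scale, while their direction did not. With no scaling between arrays miR-191-5p differed by 0.76 and miR-425-5p by 0.54. After subtraction of the local background alone, miR-191-5p was 1.63, 1.85 and 1.73-fold higher on the cisplatin array of pairs 1, 2 and 3, and miR-425-5p 1.48, 1.50 and 1.55-fold. The spike control folds given earlier were lower in each pair. They were of raw foreground on brighter spots, so they are not a like measure and nothing is drawn from this. Bright probes as a group were also higher on the cisplatin arrays before scaling. Of the 63 tested probes with a mean level above 9, 50 were higher in cisplatin arrays without scaling, with a median of 0.19, and 26 were higher after quantile normalization, with a median of -0.017. The part of this brightness in the unscaled difference of the 5p strands was not tested. The median of all tested probes (the tested median) shifted by 0.083 without scaling, relative to quantile normalization. Taking off such a shift, as done further on, need not remove this part. Scaled to the spike control spots, miR-191-5p stood at 0.54 and miR-425-5p at 0.32, and with cyclic loess at 0.53 and 0.32.

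The scanner data give each array a cell number, which was taken here as its position on a slide. This position was tied to group, with control arrays at positions 1 and 3 and cisplatin arrays at 2 and 4. The effects of position and of treatment cannot be told apart. Replicate 2 of each group lay at positions 1 and 2 and the other arrays at positions 3 and 4. Normalized separately, the arrays of replicate 2 differed by 0.65 for miR-191-5p and 0.36 for miR-425-5p, and the others by 0.39 and 0.42. Both strands were higher after cisplatin in either set, with the larger value in a different set for each. Since every cisplatin array lay above every control array for both, this direction adds nothing about position.

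**Figure D4:**
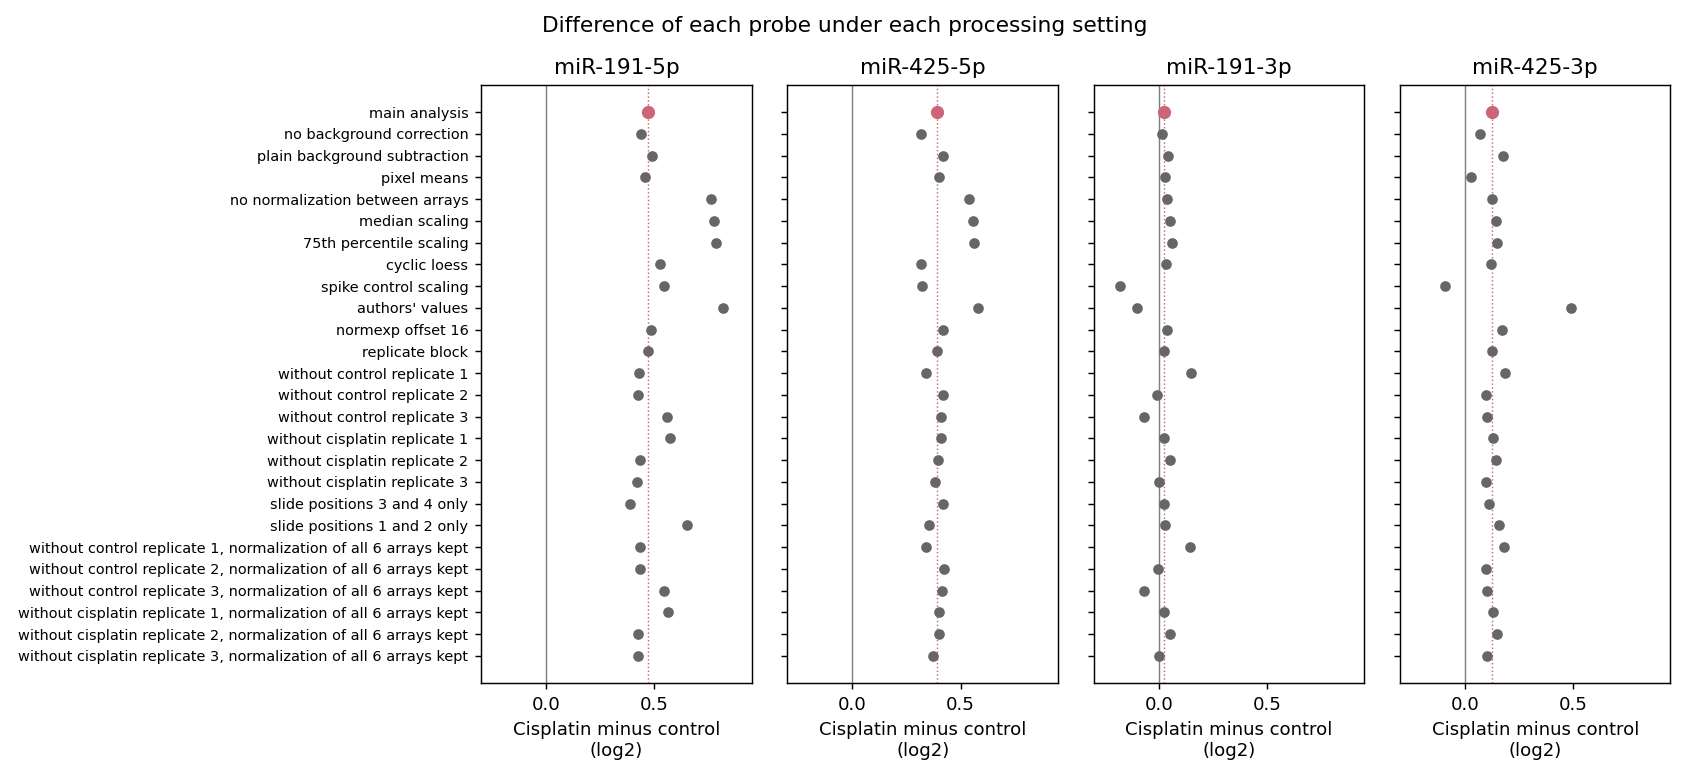
Difference between cisplatin and control (log2) of the 4 probes in the main analysis (red) and under each other processing setting (grey), with a solid line at 0. All points of both 5p probes lie to the right of 0, from 0.39 to 0.82 for miR-191-5p and from 0.32 to 0.58 for miR-425-5p, and the 3p probes have points on either side.

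Reference microRNAs form the group to which miR-191-5p and miR-425-5p are usually counted. Of 15 others listed, 13 were tested, 8 higher and 5 lower, and 0 passed an adjusted p of 0.05 in limma. Over all 324 tested probes 150 were higher and 174 lower. Their median difference was 0.057, against -0.012 over all tested probes. It stood at 0.21 without scaling between arrays and at -0.0052 when scaled to the spike control spots. 2 of the 13 had all cisplatin arrays above all control arrays, beside 8.64% of all tested probes, and 2 the reverse. The share of all tested probes with the reverse was not counted, so nothing is drawn from these counts. The brightest were miR-103a-3p (0.099, SE 0.063), which comes from introns of the pantothenate kinase genes, miR-16-5p (0.13, SE 0.099), known as a brake on the cell cycle, miR-93-5p of the MCM7 intron (-0.14, SE 0.049), and miR-23a-3p (0.55, SE 0.13). With quantile normalization only miR-23a-3p of the 13 had a higher difference than miR-191-5p or miR-425-5p. miR-24-3p came next at 0.39, close to miR-425-5p, and exceeded it with median scaling (0.61 against 0.56), cyclic loess (0.35 against 0.32) and spike scaling (0.37 against 0.32).

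Intronic microRNAs share with the cluster their position inside a protein-coding gene. Of 24 listed, 22 were tested, 9 higher and 13 lower, beside 150 and 174 of all tested probes. With 0 past the threshold in limma, their median was -0.019. The sign of that median turned with the scaling, to 0.11 with median scaling, where the tested median shifted by 0.10. The brightest were miR-103a-3p, miR-23b-3p (0.51, SE 0.11), miR-106b-5p (-0.057, SE 0.046), which shares the MCM7 intron with miR-93-5p, and miR-107 (0.093, SE 0.076) of PANK1. With quantile normalization only miR-23b-3p had a higher difference than the 5p strands of the cluster.

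Few of the other microRNAs near the cluster on chromosome 3 were bright enough to be tested. RefSeq lists 30 mature names with a hairpin within 10 Mb of MIR191, of which 20 were on the array and 4 were tested. These 4 had negative differences, as did 174 of all 324 tested probes. Their median was -0.070 and the groups overlapped for each, whereas the median over all 20 on the array was 0.053. They were miR-4443 (-0.32, SE 0.13), miR-5787 (-0.11, SE 0.16), miR-4271 (-0.026, SE 0.098) and miR-4787-5p (-0.017, SE 0.096). The other 16 on the array, let-7g-5p among them, were not detected throughout a group. Of these, miR-1226-3p (0.41), miR-4787-3p (0.40) and let-7g-3p (0.29) had every cisplatin array above every control array. miR-4787-3p was detected on 2 cisplatin arrays, and miR-1226-3p and let-7g-3p on no array, so their values lie at or under the blank limit. The share of all such undetected probes with this separation was not counted, so nothing is drawn from it.

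**Figure D5:**
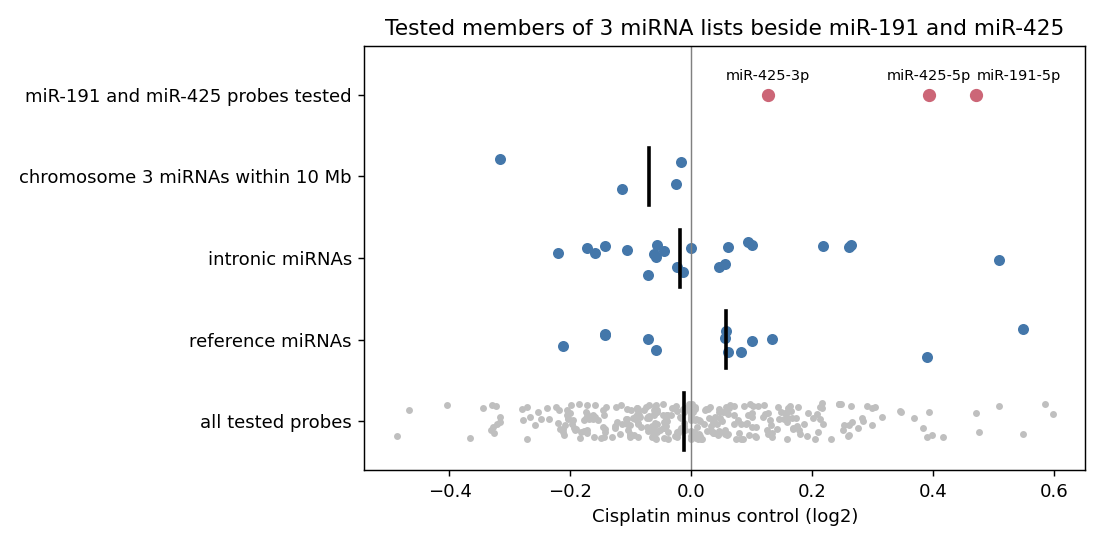
Differences between cisplatin and control (log2) of all 324 tested probes (grey), of the tested probes of 3 lists (blue) and of the 3 tested members (red), with black bars at each median and vertical scatter for legibility only. The tested probes of the lists centre near 0, with medians from -0.070 to 0.057, and few of their probes reach the 5p strands.

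The probes most like the 5p strands across the 6 arrays were found from the root mean square difference between a probe's normalized levels and the mean of miR-191-5p and miR-425-5p, each profile less its own mean. Among 241 other probes detected on all arrays the median of this measure was 0.26. The nearest was miR-4484 at 0.082, whose difference between groups was 0.40, but -0.055 when pixel means replaced pixel medians. Next were miR-30b-5p at 0.10, miR-24-3p and miR-27b-3p at 0.12 each, both from the miR-23/24/27 clusters, and miR-221-3p at 0.12, known for targeting cell cycle inhibitors. Their differences between groups were 0.24 for miR-30b-5p, 0.39 for miR-24-3p, 0.26 for miR-27b-3p and 0.22 for miR-221-3p. All 5 had a positive difference between groups, like the strands they were matched to, and the likeness describes the profile over these 6 arrays only.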

How the data were processed

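Per the file headers, the deposited scanner files hold linear intensity, as the median and mean of each spot's pixels and of its local background. The columns are named for a green laser line, although the labels give Hy5, a red dye. No source used here names the scanner. The authors' processed table, also intensity, was a linear function of the foreground median (largest residual 5.4e-06) with a median of 31 per array, and leaves out dim probes. It served as an alternative.

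Median signals were corrected in limma 3.58.1 (R 4.3.3) with normexp and an offset of 50, then quantile-normalized across human probes and log2-transformed. The offset shrinks differences of dim probes, and quantile normalization gives equal values to equal ranks. Tested probes were fitted with lmFit and eBayes, with Benjamini-Hochberg adjustment over all 324. Microarrays give no counts, and the number of arrays limits the precision. Figures were drawn with matplotlib 3.10.9.

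On simulated data the fit recovered most changed probes and the size of bright changes. It did not meet the first, stricter criteria on false calls: these ran above the nominal rate where many bright probes changed, and unadjusted p-values were too small where nothing changed. Those criteria were then replaced by looser ones, and the fit itself was left as it was. Counts of calls and of unadjusted p-values are to be read with this limit.

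Over the tested probes, deviations from the group mean correlated between same-numbered samples at 0.44, 0.24 and 0.20, so the labels' numbers were taken to pair them, although control 3 and cisplatin 2 also correlated at 0.23. In the leave-one-out fits, the first version kept the normalization of all 6 arrays. After its counts were seen, arrays were normalized again without the one left out, and both versions are given.

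The members, the lists and the alternatives were chosen with earlier results of these data known. Named were the 4 members, the 4 brightest tested probes of the reference and intronic lists, the tested chromosome 3 probes and the 5 most like the 5p strands. The naming of miR-1304-3p, miR-142-5p and the untested chromosome 3 probes, and of probes in the closing section, came after their values had been seen. Names were matched to RefSeq (GRCh38.p14), where 3 of the 4 members had a mature sequence.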

Additional observations from a re-analysis of the deposited data

How the results depend on the processing

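Both 5p differences were positive under all 18 alternatives listed at the outset that could move them. For miR-191-5p, without 1 array the range was 0.42 to 0.57, and the value moved to 0.76 without normalization between arrays, 0.78 with median scaling, 0.78 with the 75th percentile, 0.82 with the authors' values and 0.65 for slide positions 1 and 2. For miR-425-5p the range without 1 array was 0.34 to 0.42, and the values were 0.32 without background correction, 0.54 without normalization, 0.56 with median scaling, 0.56 with the 75th percentile, 0.32 with cyclic loess and 0.58 with the authors' values. The tested median shifted by 0.11 with the 75th percentile, 0.15 with the authors' values and -0.13 with spike scaling. Less this, not matched for brightness, miR-191-5p stood at 0.68 with 75th percentile, median or spike scaling and miR-425-5p at 0.46.

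miR-191-3p was negative under 4 alternatives, among them spike control scaling (-0.18) and the authors' values (-0.10), and ranged from -0.068 to 0.15 without 1 array. miR-425-3p stood at 0.028 with pixel means, 0.49 with the authors' values and -0.091 with spike control scaling, or 0.043 less that shift, and at 0.095 to 0.19 without 1 array. Its groups did not overlap with median or 75th percentile scaling. The tested median shifted by 0.10 and 0.11 there, less which miR-425-3p stood at 0.043 in each. The share of all tested probes with such a separation was not counted for these scalings, so nothing is drawn from it.

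The number of probes past the threshold in limma was 1. It was 3 without background correction, 2 with median scaling, 3 with the 75th percentile, 4 with cyclic loess (miR-191-5p among them) and 5 at an adjusted p under 0.10 (miR-425-5p among them). It was 0 under each of 8 others, for which the number of probes at an unadjusted p under 0.05 is given: pixel means (39), no normalization (33), spike control scaling (19), the authors' values (25), no detection filter (97), only probes seen on all 6 arrays (39), trend and robust moderation (38) and positions 3 and 4 only (38). Leaving out 1 array before normalization gave counts from 0 to 3, the 3 coming without cisplatin replicate 2 and 0 in each other fit (42 to 57 probes at an unadjusted p under 0.05). With the normalization of all 6 arrays kept, an alternative chosen after seeing the data, the counts were again 0 to 3, with 3 without cisplatin replicate 2 and also 2 without control replicate 1. The 5p differences were then 0.43 to 0.56 for miR-191-5p and 0.34 to 0.42 for miR-425-5p. With the replicate block it was 0 (57 at an unadjusted p under 0.05), and the SE was 0.076 for miR-191-5p, 0.055 for miR-425-5p and 0.061 for miR-425-3p. The block changed no other call and cannot move a difference. The cause of these changes was not tested. The 3p strands lie too near the blank limit to show small differences.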
